A study of Mus musculus with 6 samples.

Results

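The genes described here are 10 that encode the cytoplasmic actins, the small thymosins that hold actin monomers, and abundant actin-binding proteins: Actb (ENSMUSG00000029580), Actg1 (ENSMUSG00000062825), Tmsb4x (ENSMUSG00000049775), Tmsb10 (ENSMUSG00000079523), Cfl1 (ENSMUSG00000056201), Pfn1 (ENSMUSG00000018293), Coro1a (ENSMUSG00000030707), Arpc2 (ENSMUSG00000006304), Lcp1 (ENSMUSG00000021998) and Msn (ENSMUSG00000031207). They were taken by symbol from a count table of 55401 Ensembl genes, and 10 of 10 were found and passed the filter on low counts. The table holds 6 RNA-seq libraries, named A1 to A3 and B1 to B3 in the labels and called set A and set B here, with 3 replicates each. Every library came from wild-type mice in a study of basophils and sympathetic nerves, and was made with Smart-seq2, which copies whole transcripts from few cells, though the sample descriptions also name 10x Genomics. In the protocol that all 6 labels share, mice had 2 nmol of MC903 in 10 µL of ethanol put on both ears daily from day 0 to day 6, which brings on a dermatitis, and control mice had ethanol. The labels do not say which set had MC903, and the age of the mice is not given there, so each difference given is B minus A. The labels name blood as the source and the design text names ear skin. Cells were sorted as live, CD45+, lineage-negative, CD49b+ and positive for the IgE receptor or IgE. Whether the replicates were separate animals is not stated, and the protocol speaks of pooled RNA. The p-values therefore reflect scatter among libraries that could be technical.

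Actin monomers join into filaments that push the cell membrane forward, hold the cell cortex and carry granules, and blood leukocytes are among the cells richest in them. Thymosins keep monomers in reserve, profilin feeds monomers to growing ends, the Arp2/3 complex starts new branches, cofilin and coronin take old filaments apart, plastin bundles them, and moesin ties them to the membrane. Several of these genes are used as reference transcripts because many cell types express them.

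Total counts ran from 46137963 to 63956911 per library, and 3 counts, taken as the limit of detection, were 0.0469 to 0.0650 CPM (counts scaled to a fixed library total). This limit is nominal, since low counts were more often 4 than 3 or 5, and a value of 4 counts is not read as detection. The sets differ in markers of the sorted cell. Fcer1a, the IgE-binding chain of the receptor used for sorting, was at 0.0726, 0 and 0 CPM in A1, A2 and A3 and at 216, 94.4 and 41.9 CPM in B1, B2 and B3. Lyz2, a lysozyme of monocytes and neutrophils, had the highest count in each of the 6 libraries, at 22600 to 39756 CPM. The libraries are therefore described by their labels, and no level below is read as that of basophils. In such bulk libraries a lower share of a cell type and less RNA per cell cannot be told apart.

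Of the 10 genes, 0 passed at an adjusted p under 0.05 by edgeR, against 0.0217% of the 9196 genes tested. At an unadjusted p under 0.05 edgeR counted 0 of the 10, where 6.36% of all tested genes passed. DESeq2 and limma-voom also called 0 of the 10 at an adjusted p under 0.05 (11.4% and 2.2% of the genes each tested). By DESeq2 log2 differences of -0.67 for Msn and -0.42 for Actb had unadjusted p of 0.650 and 0.772. DESeq2 could hardly have called differences of this size, so its 0 adds little. At an unadjusted p under 0.05 limma-voom counted 1 of the 10, Msn, and 896 of all 9196 genes. With RLE scaling edgeR counted 1, Actb, and 604 of all genes. The values of the sets overlapped for all 10 genes, and 14.1% of all tested genes had no overlap. Among only 10 genes a count of 0 is not far from that share. The 95% intervals still allow sizeable differences, from 1.32 lower to 0.86 higher in B on the log2 scale across the genes.

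**Figure D1:**
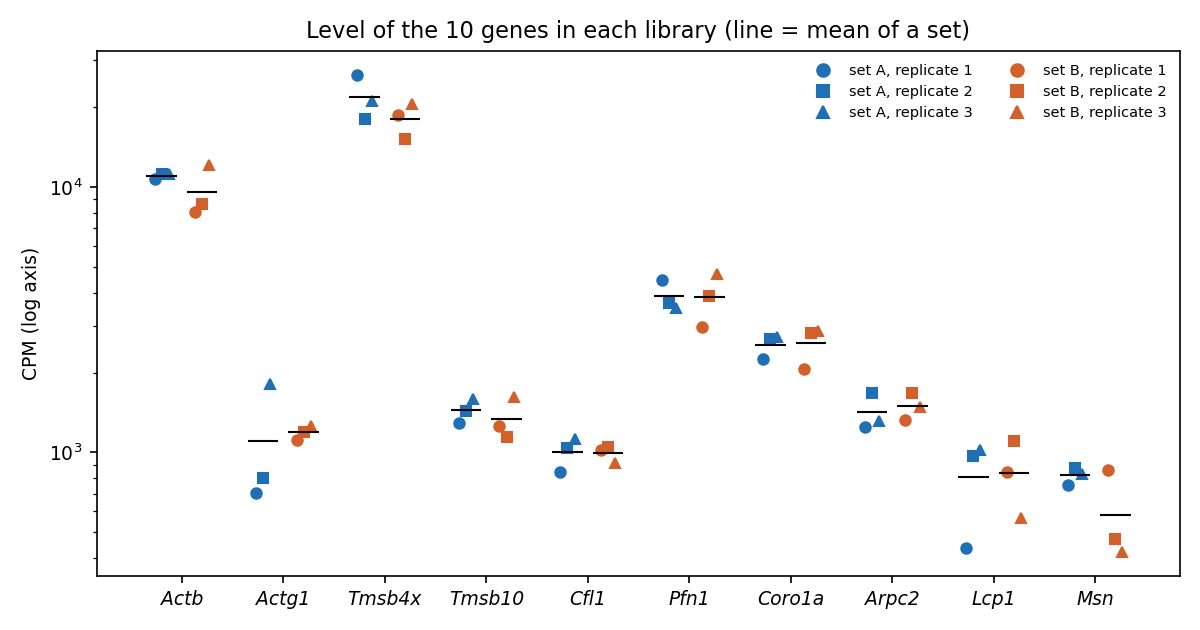
CPM on a log axis for each of the 10 genes, with 1 point per library and a line at the mean of each set. The points of the sets overlap for every gene, from Tmsb4x at 15095 to 26461 CPM down to Msn at 423 to 872 CPM.

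Actb encodes beta-actin and Actg1 gamma-actin, the actins of non-muscle cells. Their proteins are nearly identical, so how far reads could be shared between the genes bears on both values. Over the 1128 coding bases of their GENCODE M21 transcripts 1000 were identical (88.7%), and the longest stretch without a difference was 62 bases. The stretch around it is shown to make this visible, from base 874 to base 965 counted from the start codon, with capitals for the bases that differ:
Actb: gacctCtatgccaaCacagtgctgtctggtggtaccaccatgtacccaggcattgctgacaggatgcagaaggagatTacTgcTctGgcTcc
Actg1: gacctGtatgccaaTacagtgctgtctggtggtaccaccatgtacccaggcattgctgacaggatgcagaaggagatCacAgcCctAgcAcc
Of the 979 windows of 150 bases, the length of a read, 0 were identical between the pair, and the closest window differed at 8 bases. How the authors assigned reads that match several genes is not stated, so a part of each value remains uncertain. Rows named as pseudogenes of the 10 by their full symbol numbered 0, Actg-ps1 had 115 counts over all libraries, and copies under other names were not looked for.

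Actb was at 10697, 11150 and 11133 CPM in A1, A2 and A3 and at 8028, 8588 and 12063 CPM in B1, B2 and B3. The A libraries lay close together, and the B libraries held both the lowest and the highest value. Set means were 10993 ± 257 in A and 9560 ± 2186 in B (SD, n = 3 each). The fitted log2 difference was -0.30 (SE 0.19, 95% interval -0.75 to 0.16, adjusted p = 1.00 by edgeR). Without B3 it was -0.48, with an unadjusted p of 0.00178 and an adjusted p of 0.798 by edgeR, and without B1 and B2 it was -0.20 and -0.16. With RLE scaling it was -0.42 (unadjusted p = 0.0268, adjusted p = 0.551 by edgeR), and by limma-voom it was -0.03.

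Actg1 was at 702, 804 and 1809 CPM in A1, A2 and A3 and at 1119, 1198 and 1260 CPM in B1, B2 and B3. The B libraries were near each other, and A3 stood above them all while A1 and A2 stood below them. Means were 1105 ± 611 in A and 1192 ± 70.7 in B (SD, n = 3 each), with a log2 difference of 0.04 (SE 0.34, 95% interval -0.77 to 0.86, adjusted p = 1.00 by edgeR). Leaving out A3 gave 0.52 (unadjusted p = 0.0332, adjusted p = 0.440 by edgeR), and leaving out A1 or A2 gave -0.17 or -0.13. It was also below 0 with RLE scaling, at -0.05.

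The ratio of Actb counts to Actg1 counts in a library does not depend on scaling. It was 15.2, 13.9 and 6.16 in A1, A2 and A3 and 7.18, 7.17 and 9.58 in B1, B2 and B3. A1 and A2 had the highest ratios and A3 the lowest of all 6, so the sets overlapped. The mean log2 ratio was lower in B by 0.47 (-0.467, exact permutation p = 0.4, 2-sided, adjusted p = 0.8 over the 2 ratios tested). With 3 libraries against 3 this test cannot go below 0.1. Without A3 the log2 difference was -0.88, and without A1 it was -0.23. Of the muscle actins, Acta1, Actc1 and Actg2 had 0 counts in all 6 libraries. Acta2, the smooth muscle actin, was at 192 and 31.1 CPM in B1 and B2, at 14.3 in A2 and under 1 CPM in the other 3 libraries.

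**Figure D2:**
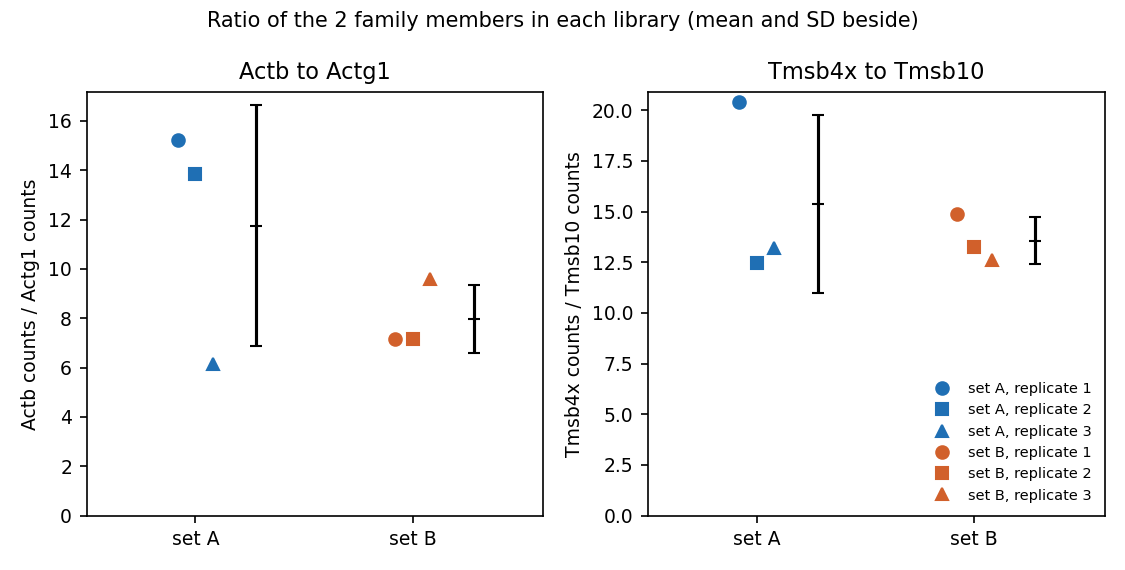
Counts of Actb over Actg1 (left) and of Tmsb4x over Tmsb10 (right), 1 point per library, with the mean and SD of each set beside the points. A3 has the lowest Actb to Actg1 ratio, 6.16, and A1 the highest Tmsb4x to Tmsb10 ratio, 20.4.

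Tmsb4x and Tmsb10 encode thymosin beta-4 and thymosin beta-10, small proteins that bind actin monomers and keep them out of filaments. Their coding sequences have equal length, 135 bases, and were identical at 95 of them (70.4%), with no shared stretch longer than 10 bases in the whole transcripts. They are printed whole because they show how far apart the pair is for read assignment, with capitals for the bases that differ (GENCODE M21):
Tmsb4x: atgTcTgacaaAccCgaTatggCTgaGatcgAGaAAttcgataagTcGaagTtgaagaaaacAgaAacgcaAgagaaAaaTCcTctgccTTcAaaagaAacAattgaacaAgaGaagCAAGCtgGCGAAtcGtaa
Tmsb10: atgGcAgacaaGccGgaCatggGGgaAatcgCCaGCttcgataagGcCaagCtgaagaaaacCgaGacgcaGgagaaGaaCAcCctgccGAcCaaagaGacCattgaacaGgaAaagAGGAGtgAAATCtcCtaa
The longest runs of differing bases lie near the stop codon.

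Tmsb4x was at 26461, 17944 and 20987 CPM in A1, A2 and A3 and at 18667, 15095 and 20440 CPM in B1, B2 and B3. It ranked second among all genes in each of the 6 libraries. A1 was the highest and B2 the lowest, and the sets overlapped. Means were 21797 ± 4316 in A and 18067 ± 2723 in B (SD, n = 3 each), with a log2 difference of -0.38 (SE 0.22, 95% interval -0.91 to 0.15, adjusted p = 1.00 by edgeR). Leaving out A1 gave -0.16, and leaving out B2 gave -0.20.

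Tmsb10 was at 1296, 1438 and 1587 CPM in A and at 1255, 1141 and 1622 CPM in B, in replicate order. B3 and A3 were the highest and B2 the lowest. The log2 difference was -0.19 (SE 0.20, 95% interval -0.67 to 0.28, adjusted p = 1.00 by edgeR), and it was -0.03 without B2 and -0.33 without B3. The ratio of Tmsb4x to Tmsb10 counts was 20.4, 12.5 and 13.2 in A and 14.9, 13.2 and 12.6 in B. A1 stood apart and the other 5 lay between 12.5 and 14.9. The log2 ratio differed by -0.15 (exact permutation p = 0.9, 2-sided, adjusted p = 0.9 over the 2 ratios), and by 0.08 without A1. Tmsb15a, a further beta thymosin, had 0 counts in all 6 libraries.

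Pfn1 encodes profilin-1, which loads actin monomers with ATP and delivers them to growing filament ends. It was at 4471, 3660 and 3500 CPM in A1, A2 and A3 and at 2969, 3866 and 4678 CPM in B1, B2 and B3. The lowest and the highest library were both in B, and the set means were nearly equal (3877 ± 520 in A, 3838 ± 855 in B, SD, n = 3 each). The log2 difference was -0.12 (SE 0.24, 95% interval -0.69 to 0.44, adjusted p = 1.00 by edgeR). Among Pfn1, Pfn2 and Pfn4, Pfn1 made up at least 99.99% of transcripts per length in each library. Pfn4 had 0 counts, and Pfn2 was at 0.946 CPM in A2 and at 0 elsewhere.

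Cfl1 encodes cofilin-1, which severs aged filaments and returns monomers to the pool. It was at 846, 1039 and 1125 CPM in A1, A2 and A3 and at 1021, 1048 and 914 CPM in B1, B2 and B3. It was the steadiest of the 10 genes, with a highest library 1.33 times the lowest. The log2 difference was -0.11 (SE 0.16, 95% interval -0.49 to 0.28, adjusted p = 1.00 by edgeR), and it was -0.18 without A1 and -0.02 without B3. Its relatives Cfl2 and Dstn (destrin) varied far more: Dstn was at 63.1 CPM per kilobase in B2 and 0.0396 in A2. Cfl1 held 87.4% to 99.7% of the family per length.

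Coro1a encodes coronin-1A, the main coronin of leukocytes, which binds filaments and the Arp2/3 complex. It was at 2242, 2680 and 2712 CPM in A1, A2 and A3 and at 2065, 2810 and 2867 CPM in B1, B2 and B3. Replicate 1 was the lowest library in both sets, and the remaining 4 values lay within 2680 to 2867. The log2 difference was -0.07 (SE 0.17, 95% interval -0.49 to 0.34, adjusted p = 1.00 by edgeR), and it was 0.02 with library size alone as the scaling. Among Coro1a, Coro1b, Coro1c, Coro2a and Coro7, Coro1a held 75.0% to 92.1% of transcripts per length. Coro1b, the broadly expressed coronin, held 7.39% to 22.0%.

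Arpc2 encodes the p34 subunit of the Arp2/3 complex, which forms its structural core and touches the mother filament. It was at 1249, 1680 and 1316 CPM in A1, A2 and A3 and at 1319, 1675 and 1485 CPM in B1, B2 and B3. The values of the sets interleaved. The log2 difference was -0.02 (SE 0.18, 95% interval -0.46 to 0.41, adjusted p = 1.00 by edgeR), and with library size alone it was 0.08.

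Among the subunits Arpc1b had the highest CPM. Per kilobase of the main coding transcript Arpc2 was at 868 to 1168 CPM over the 6 libraries, Arpc1b at 523 to 1133, Arpc5 at 415 to 917, Arpc3 at 222 to 640 and Arpc4 at 203 to 385. With the shortest coding transcript as the length Arpc1b averaged 1698 over the 6 libraries and stood above Arpc2 at 1107, so their order depends on the transcript assumed. The actin-related subunits Actr2 and Actr3 were at 85.9 to 198 and 133 to 293 CPM per kilobase. Arpc5l was at 175 to 365, and Arpc1a, the lowest subunit by mean, at 23.8 to 88.5. Arpc4 was at 875, 839 and 872 CPM in the A libraries against 461, 508 and 658 in the B libraries, with no overlap and a log2 difference of -0.77 (SE 0.23, unadjusted p = 0.0128, adjusted p = 0.508 by edgeR). Arpc3 lay the other way, at 311, 200 and 397 CPM in the A libraries against 401, 499 and 575 in the B libraries (log2 difference 0.61, SE 0.33, adjusted p = 1.00 by edgeR). These values did not pass the threshold, and whether the balance of subunits differs between the sets was not tested.

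Lcp1 encodes L-plastin, the bundling protein of blood cells. It was at 437, 967 and 1021 CPM in A1, A2 and A3 and at 847, 1106 and 567 CPM in B1, B2 and B3. A1 and B3 were the low libraries, 1 in each set. The log2 difference was -0.03 (SE 0.36, 95% interval -0.89 to 0.83, adjusted p = 1.00 by edgeR), it was 0.06 with library size alone, and fits without 1 library each gave -0.31 to 0.22. The other plastins were above 1 CPM in 1 library: in A2 Pls1 was at 106 CPM and Pls3 at 134 CPM, and both were under 0.2 CPM in the other 5.

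Msn encodes moesin, the member of the ezrin, radixin and moesin (ERM) family that prevails in leukocytes and links filaments to membrane proteins. It was at 753, 872 and 833 CPM in A1, A2 and A3 and at 857, 471 and 423 CPM in B1, B2 and B3. B2 and B3 were the lowest of the 6, and B1 lay among the A libraries. Means were 819 ± 60.6 in A and 584 ± 238 in B (SD, n = 3 each), with the log2 difference of -0.59 farthest from 0 among the 10 genes (SE 0.30, 95% interval -1.32 to 0.14, unadjusted p = 0.0950, adjusted p = 1.00 by edgeR). Without B1 it was -0.99 (unadjusted p = 0.00505, adjusted p = 0.530 by edgeR), and without B2 and B3 it was -0.40 and -0.37. By limma-voom it was -0.83, with an unadjusted p of 0.0123 and an adjusted p of 0.254. Over all 15 other settings the adjusted p ran from 0.254 to 1.00. Msn held 60.9% to 85.5% of the ERM family per length, Ezr (ezrin) 12.5% to 38.8% and Rdx (radixin) 0.264% to 9.87%.

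**Figure D3:**
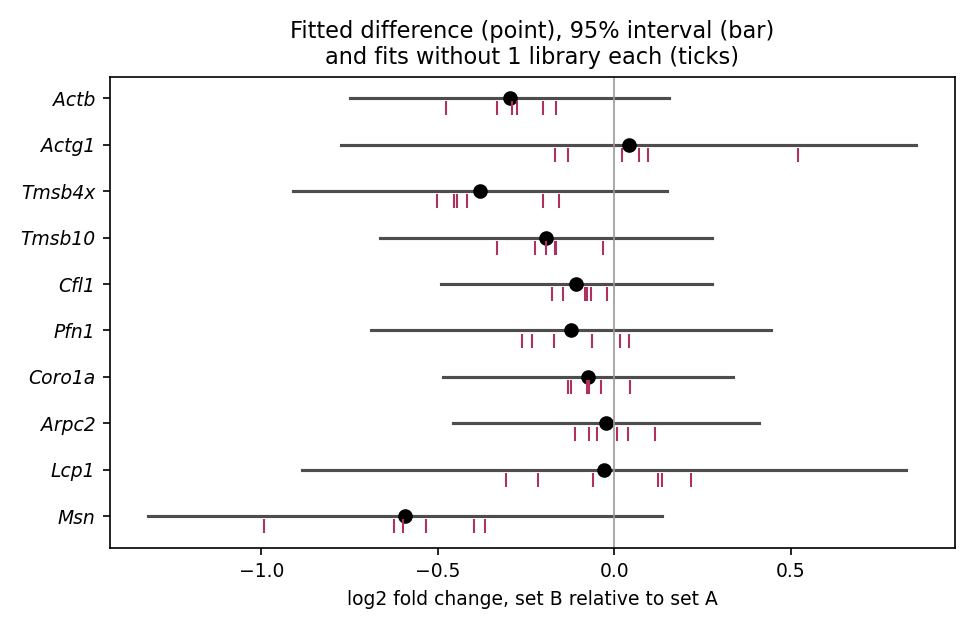
Log2 fold change of set B relative to set A for each gene (point), its 95% interval (bar) and the 6 fits that leave out 1 library (ticks). Every interval includes 0, and the ticks of Actg1, from -0.17 to 0.52, and of Msn, from -0.99 to -0.37, spread the most.

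Of the 10 fitted differences 9 were below 0, where 52.0% of all tested genes were, and the median was -0.12 against -0.06 over all genes. The count depends on scaling, since 6 of 10 were below 0 with library size alone and 10 of 10 with RLE scaling, which moved the median of all genes from -0.06 to -0.16. Together the 10 genes took 4.92%, 4.22% and 4.602% of all counts in A1, A2 and A3 and 3.81%, 3.70% and 4.63% in B1, B2 and B3. B1 and B2 were below every A library and B3 was within their range. The difference between set means was -0.53 percentage points, -0.82 without B3 and -0.36 without B2. The thymosins took 1.62% to 2.78% of counts and the actins 0.915% to 1.33%.

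To compare levels between genes, CPM was divided by the length of the main coding transcript in kilobases. On this scale Tmsb4x was far above the rest, at 28382 ± 5620 in A and 23525 ± 3545 in B (SD, n = 3 each). Actb (5726 ± 134 and 4979 ± 1138) and Pfn1 (4503 ± 604 and 4457 ± 993) came next and did not differ beyond their spread in B, and Pfn1 was above Actb in B2. Tmsb10 (2087 ± 211 and 1941 ± 364), Coro1a (1456 ± 150 and 1477 ± 256) and Arpc2 (983 ± 161 and 1038 ± 124) followed in that order in each library, with Actg1 above Arpc2 in A3. Actg1 (566 ± 313 and 611 ± 36.2) and Cfl1 (426 ± 60.6 and 422 ± 30.0) overlapped in A. Lcp1 (210 ± 84.0 and 219 ± 70.2) and Msn (213 ± 15.8 and 152 ± 61.9) were lowest and changed places between libraries. The order of the first 5 was the same with the other lengths tried. With all exons joined as the length Actb and Pfn1 averaged 3836 and 1604 over the 6 libraries, so their closeness depends on the length assumed. With the shortest coding transcript as the length Actg1 and Cfl1 averaged 1311 and 1295 over the 6 libraries and stood above Arpc2 at 1107.

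**Figure D4:**
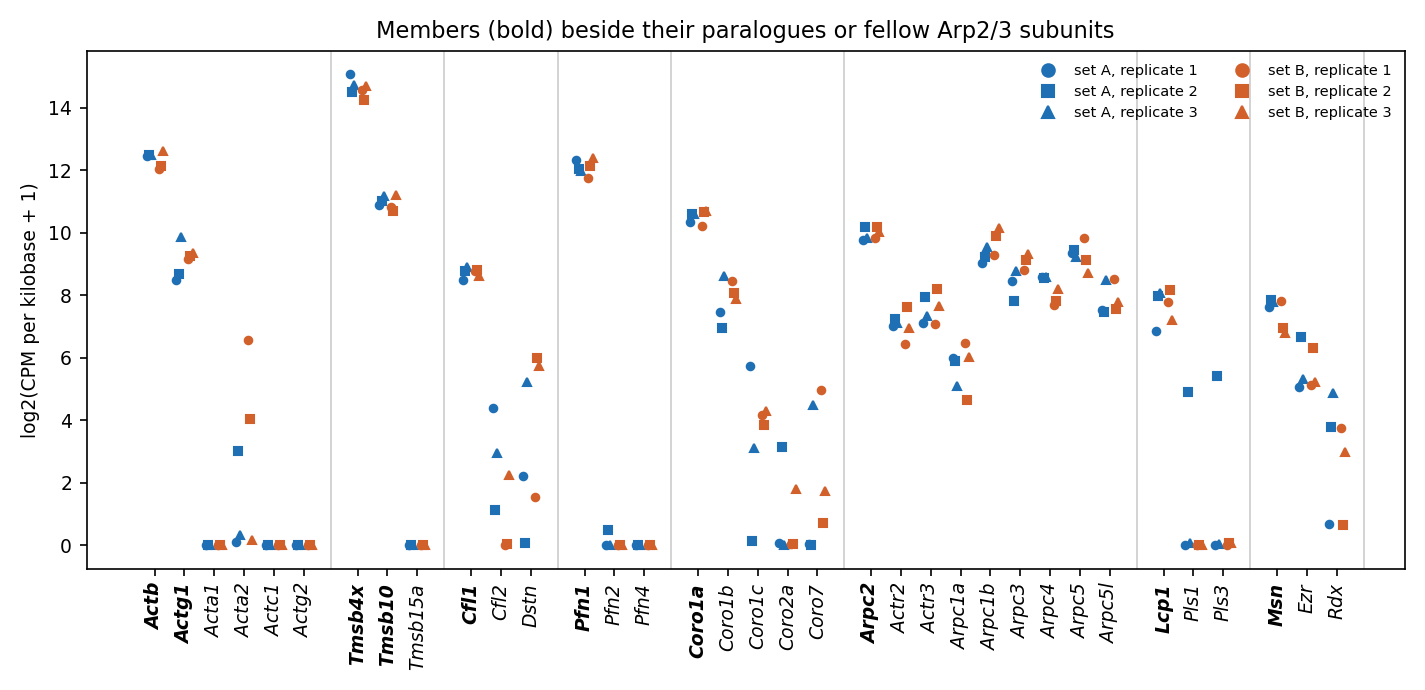
Log2 of CPM per kilobase plus 1 for the 10 genes (bold) beside their paralogues or fellow Arp2/3 subunits, 1 point per library. With these lengths each bold gene other than Actg1 and Tmsb10 is the highest of its group by mean, though Arpc1b is above Arpc2 with the shortest coding transcripts, and Acta1, Actc1, Actg2, Tmsb15a and Pfn4 are at 0 in every library.

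The wider machinery was read from 91 further genes in 10 groups by role, of which 74 could be tested. Of these 0 passed by edgeR and by limma-voom. DESeq2, with its own filter, called 2 of the 74 and 1 more of the 91, where it called 11.4% of all genes it tested. At an unadjusted p under 0.05 edgeR counted 2 higher in B and 3 lower, where 5.05% and 1.32% of all tested genes were. The sets did not overlap for 7 genes higher in B and 3 lower, where all tested genes gave 10.2% and 3.91%. The median log2 difference over the 74 was 0.01.

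Among severing and turnover factors (13 of 15 tested, 0 passed) Ssh2, a phosphatase that activates cofilin, was at 207, 194 and 191 CPM in the A libraries against 99.9, 116 and 102 in the B libraries. The A libraries were all above the B libraries (log2 difference -1.01, SE 0.42, unadjusted p = 0.0475, adjusted p = 0.762 by edgeR). Wdr1, a cofactor of cofilin, was at 128 to 225 CPM in A and 238 to 399 CPM in B, a log2 difference of 0.73 (SE 0.42, edgeR adjusted p = 1.00). Gmfb, which prunes Arp2/3 branches, was at 29.2, 0.757 and 0.173 CPM in the A libraries against 84.9, 57.8 and 51.8 in the B libraries. Cfl2 was at 59.2 CPM in A1 and at 0 in B1.

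Monomer-binding factors other than the 10 genes (3 of 7 tested, 0 passed) were low. Twf2, a twinfilin, was at 56.8, 14.9 and 45.9 CPM in the A libraries against 104, 105 and 82.8 in the B libraries, without overlap. Cap1, which recycles monomers, was at 2.62 to 40.8 CPM over the 6 libraries, and Twf1 reached 66.8 CPM in A2 and was at 0 in A1 and B1.

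Of the capping proteins (6 of 6 tested, 0 passed by edgeR) Capza1, a subunit of the capping protein of filament ends, was at 243, 355 and 176 CPM in the A libraries against 705, 501 and 315 in the B libraries, and B3 overlapped with A. Eps8, a capping and bundling protein, was at 0 to 0.530 CPM in A and at 50.6, 13.4 and 71.9 CPM in B (unadjusted p = 0.0320, adjusted p = 0.626 by edgeR), and DESeq2 called it. Capg, a gelsolin relative of macrophages, ranged from 1.41 CPM in A3 to 522 CPM in B1, and Tmod3, a tropomodulin, from 65.0 in A3 to 327 in A2.

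Among bundling and contractile genes (11 of 15 tested, 0 passed by edgeR) Myl12a, a regulatory light chain of non-muscle myosin, was at 947, 578 and 783 CPM in the A libraries against 511, 409 and 493 in the B libraries. The sets did not overlap (log2 difference -0.82, SE 0.28, unadjusted p = 0.0237, adjusted p = 0.5499 by edgeR). Tpm1, a tropomyosin, was at 0.0726 to 1.80 CPM in A and 20.7 to 76.5 CPM in B (unadjusted p = 0.0342, adjusted p = 0.645 by edgeR), and DESeq2 called it too. Actn4, an alpha-actinin, was at 44.0 to 177 CPM in A and 13.2 to 52.2 CPM in B, with overlap. Actn1, its relative, was at most 5.13 CPM in any library.

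Of the membrane linkers (6 of 7 tested), the GTPases and exchange factors (10 of 10 tested) and the nucleation promoters (14 of 16 tested), 0 passed by edgeR. Selplg, the selectin ligand that moesin can bind, was at 971 to 1879 CPM in A and 1121 to 2064 CPM in B. Rhoa was at 724 to 881 CPM in A and 558 to 797 CPM in B, and Cdc42 at 660 to 1174 and 1004 to 1099. Vasp, an elongation factor, was at 53.5 to 246 CPM in A and 9.23 to 82.3 CPM in B. Wasf2, of the WAVE complex, was at 155 to 248 and 107 to 217 CPM, its partner Cyfip2 at 0.290 to 102 and 63.8 to 115, and Wipf1 at 1.63 to 168 and 8.24 to 22.3. Dock2 and Dock8, exchange factors for Rac and Cdc42, were at 179 to 471 and 192 to 285 CPM in A and at 1.79 to 274 and 16.1 to 210.5 CPM in B. The surface proteins Cd44 and Spn were at 138 to 417 and 74.7 to 236 CPM in A and at 169 to 426 and 94.0 to 161 CPM in B. Each of these ranges overlapped between the sets. Nf2, whose product merlin is related to the ERM proteins, was the third gene called by DESeq2, at 0.0726, 95.4 and 59.2 CPM in A and at most 0.0676 CPM in B, and it did not pass the filter for edgeR.

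Serum response factor (SRF) and its cofactors Mrtfa and Mrtfb drive actin genes when the pool of free monomers falls, through a DNA element named the CArG box. Srf was at most 0.829 CPM in any library and was not tested. Mrtfa was at 94.999, 4.35 and 83.7 CPM in the A libraries against 0.0804, 27.6 and 14.4 in the B libraries, and Mrtfb at 67.4, 0 and 63.3 CPM in the A libraries against 5.43, 25.5 and 18.2 in the B libraries. Both varied as much within a set as between sets. RefSeq promoter windows (250 bases before to 50 after a gene start, GRCm38.p6) were matched for 9 of the 10 genes, in 13 windows, and the entry for Actb was missing. A CArG box, searched on both strands, was found in 1 of the 13 windows, that of Actg1, and in 1.63% of all 32851 windows. Those 250 bases before the start of Actg1 are shown because they hold the only box among those windows (minus strand, chr11:120348496-120348745, GRCm38.p6), with the box in capitals:
Actg1 promoter: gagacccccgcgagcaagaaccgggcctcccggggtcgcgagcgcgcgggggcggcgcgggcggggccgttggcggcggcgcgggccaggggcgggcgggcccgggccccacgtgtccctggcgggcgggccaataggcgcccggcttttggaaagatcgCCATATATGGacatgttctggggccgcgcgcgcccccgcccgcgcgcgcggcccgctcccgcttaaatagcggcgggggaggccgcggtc
The box lies 90 to 81 bases before the start. The match describes the sequence and says nothing about binding of the factor in these cells.

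The 10 genes are abundant, and abundant genes varied less between these libraries. The SD of log2(CPM + 1) over the 6 libraries had a median of 0.24 over the 10 genes, 0.45 over the 525 tested genes with a mean of at least 300 CPM, and 2.11 over all 9196 tested. Of the 10, 7 lay below the median of those 525. The 10 genes had means of 701 to 19932 CPM, and the 525 were not matched to them in level. Cfl1 (SD 0.15) ranked 7th from the lowest, Arpc2 (0.19) 26th, Coro1a (0.19) 31st and Tmsb10 (0.20) 37th. Lcp1 (0.53), Actg1 (0.49) and Msn (0.47) were above the median. This spread includes any difference between the sets.

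**Figure D5:**
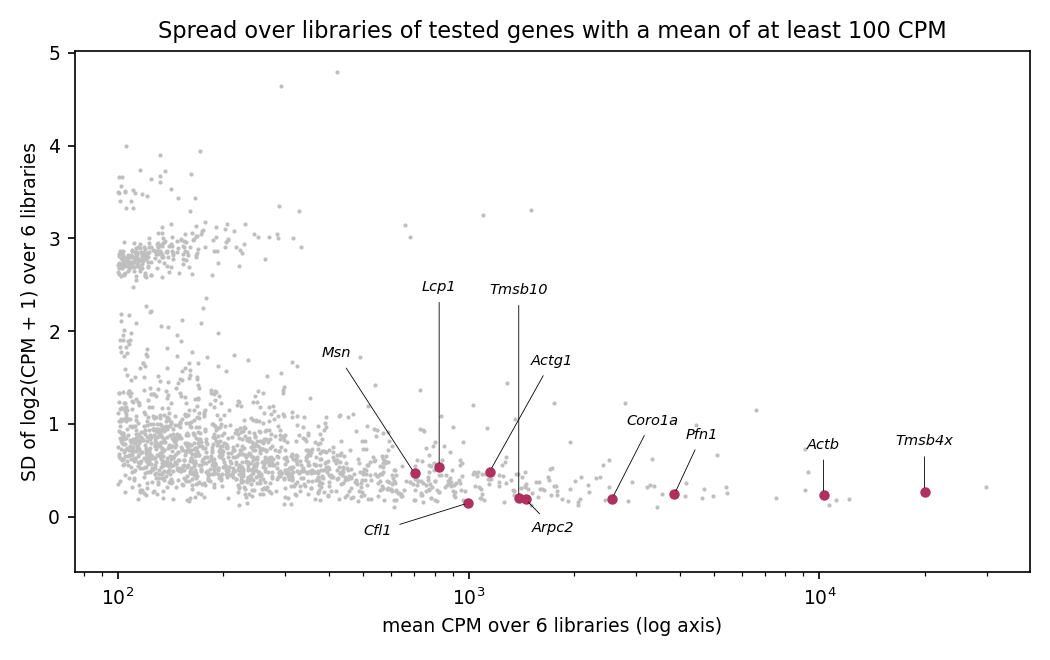
SD of log2(CPM + 1) over the 6 libraries against mean CPM on a log axis, for tested genes with a mean of at least 100 CPM (grey) and the 10 genes (red). The red points lie between 0.15 for Cfl1 and 0.53 for Lcp1.

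For Actb, Tmsb4x and Lcp1 the genes with the most similar pattern were sought among the 515 others with a mean of at least 300 CPM, by Pearson r of log2(CPM + 1) over the 6 libraries. The highest of 515 values over only 6 libraries is high by selection, so no test is attached. Closest to Actb were Sh3bgrl3 (r = 0.937), Apoe (0.914) and Eif3k (0.891). Sh3bgrl3, a small thioredoxin-like protein, was at 2452, 2516 and 2571 CPM in the A libraries against 1978, 2303 and 2857 in the B libraries, the same order of libraries within B as Actb. Closest to Tmsb4x were Chchd2 (r = 0.924), Gm10123 (0.913) and Elob (0.891), all highest in A1. Closest to Lcp1 were H3f3a (r = 0.929), Tpm3 (0.928) and Tpt1 (0.900). Tpm3 is a tropomyosin that coats actin filaments, and it was lowest in A1 and B3, as Lcp1 was.

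Several sums of blood cell markers moved with the sets, and their part in the values above was not tested. The 7 basophil markers summed to 39.6 to 269 CPM in A and 1424 to 3152 CPM in B, and the 8 neutrophil markers to 2254 to 9535 and 12083 to 22561 CPM. The 5 monocyte markers, mostly Lyz2, summed to 33218 to 40712 CPM in A and 23232 to 30531 CPM in B. The 8 T cell markers summed to 481 to 1135 and 213 to 375 CPM, with Cd4 at 0 in every library, and the 5 platelet markers to 851 to 1174 and 480 to 784 CPM. These 5 sums did not overlap between the sets, but in each list single markers did. Ms4a2 was at 0 to 11.9 CPM in A and 1.02 to 20.7 in B. S100a9 was at 457 to 2931 and 2575 to 5780, and Csf1r at 547 to 810 and 462 to 572. Lck was at 0.490 to 254 and 62.7 to 193, and Pf4 at 157 to 522 and 118 to 239. Mcpt8, S100a8, Lyz2, Trac and Ppbp did not overlap, and S100a8 was the highest neutrophil marker in each library. The 5 B cell markers overlapped (1607 to 3011 and 2022.7 to 2718 CPM), as did the 5 NK cell markers (847 to 2258 and 959 to 1463) and the 4 dendritic cell markers (30.8 to 101 and 31.1 to 73.7, with Flt3 and Zbtb46 at 0 in B). The 5 erythroid markers, Alas2 at 0 throughout, summed to 270 to 629.8 CPM in A and 109 to 179 CPM in B, without overlap. Eosinophil markers (4, with Epx and Prg2 at 0 throughout) reached 0.173 CPM in A and 1.53 to 70.0 in B, those of fibroblasts and endothelium (4, with Col1a1 and Col1a2 at 0 throughout) 58.6 and 215, and those of keratinocytes (4, with Krt5, Krt14 and Krt1 at 0 throughout) 38.8 and 45.3.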

How the data were processed

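The authors deposited 1 table of raw counts per Ensembl gene, not normalized, with 1 column per library. The submitters' processing notes name cutadapt 1.9, HISAT2 2.2.1 and DESeq2. The counting program, genome build, annotation and strand setting were not given in the sources used here. The deposited counts are far above the read yield that the labels state, and low counts were more often 4 (5211 values) than 3 (819) or 5 (660), so totals are not numbers of fragments. Without molecular identifiers, detection limits cover counting error only. Symbols matched 55141 of 55401 identifiers.

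From the counts, CPM was computed on library totals. Set B was compared with set A by edgeR 4.0.16 (R 4.3.3) over 6 libraries without covariates: filterByExpr, TMM, glmQLFit (robust=TRUE) and glmQLFTest, adjusted by Benjamini-Hochberg over 9196 genes with a threshold of 0.05. Each SE is the size of the log2 difference divided by the root of F, and intervals are 95%. Transcript lengths came from GENCODE M21 (APPRIS principal coding transcript). Scripts were tested on simulated data. DESeq2 1.42.0 and limma-voom (limma 3.58.1, voomWithQualityWeights, which gives each library a weight) were alternatives. The genes and lists were chosen with earlier results of these data known. The text names the 10 genes, up to 4 tested genes per group with the smallest p, any past the threshold, and the 3 genes most like Actb, Tmsb4x and Lcp1. Other genes were named after their values were seen. Other lengths were added after seeing the data.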

Additional observations from a re-analysis of the deposited data

How the results depend on the processing

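Under the 15 other settings 0 of the 10 genes was called. Of the 150 refits, 130 kept the direction and 20 did not, all in Actg1, Pfn1, Coro1a, Arpc2 and Lcp1. With library size alone the log2 differences of Coro1a, Arpc2 and Lcp1 were 0.0204, 0.0777 and 0.0556. With RLE scaling and with DESeq2 that of Actg1 was -0.0544 and -0.0549, and by limma-voom those of Pfn1, Coro1a and Arpc2 were 0.0446, 0.0130 and 0.0323. The limma-voom fit weighted the libraries, and its median over all genes was 0.87, against -0.06 by edgeR. Without 1 library each they ran from -0.17 to 0.52 for Actg1, -0.26 to 0.0414 for Pfn1, -0.13 to 0.0446 for Coro1a, -0.11 to 0.12 for Arpc2 and -0.31 to 0.22 for Lcp1, and the Tmsb4x to Tmsb10 log2 ratio from -0.28 to 0.0757. Over all genes 2 were called, against 1192 by DESeq2, 202 by limma-voom, and 0 to 1 without 1 library each. Of the actin pathway genes DESeq2 called 3 (Eps8, Nf2 and Tpm1). The cause of these changes was not tested.

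Replicate numbers 1 to 3 occur in both sets. Deviations of same-numbered libraries correlated at 0.03, -0.02 and 0.03, so the numbers were not taken as pairs. With a replicate block 0 genes were called, the difference of Lcp1 was 0.000418, and the ratios differed by -0.47 and -0.15 with exact permutation p of 0.5 and 0.75. Leaving out mitochondrially encoded genes moved the difference in the share of counts from -0.53 to -0.59 percentage points, and leaving out 1 library each gave -0.82 to -0.36. With 3 libraries a set, differences smaller than the intervals given could not be seen.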
